A study of Homo sapiens with 12 samples.

Results

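MALAT1, NEAT1, TUG1, PVT1, GAS5 and DANCR are long noncoding RNAs with names of their own, known from many cell types and grouped here as abundant. They were found by gene symbol in a table of reads per transcript, where they were 6 of 44786 symbols and held 91 of 197782 transcripts. The libraries came from U937, a human myelomonocytic leukemia cell line, and were made from total RNA after depletion of ribosomal RNA, with strand-specific 50 bp paired-end reads. The study asked how decitabine (DAC), a cytosine analogue that traps DNA methyltransferases, and all-trans retinoic acid (ATRA), a ligand of the retinoic acid receptors, act on such cells alone and together. There were 12 libraries, 3 each from untreated cells, from cells given DAC at 200 nM on 3 consecutive days, from cells given ATRA at 1 µM and from cells given both agents (DAC+ATRA). Per the labels, untreated cells were cultured for 96 h and treated cells for 72 h, all in medium with 20% FCS and 5 ng/ml GM-CSF. The published methods give another serum content and add ATRA with the last dose of DAC, and the paper and the series summary state 72 h with no longer time for untreated cells. The files do not settle which applies, and by the labels treatment and culture time cannot be told apart in comparisons with untreated. U937 is 1 line, and its answer is not that of leukemias in general.

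Long noncoding RNAs are known to act mainly as RNA rather than through a protein. The gene annotation GENCODE 44 lists the TUG1 transcripts as protein coding with no coding sequence defined. NEAT1 is the scaffold on which paraspeckles, nuclear bodies that hold RNA-binding proteins, are built, and MALAT1 gathers in nuclear speckles beside splicing factors. TUG1 has been linked to Polycomb repressive complexes, PVT1 lies beside the MYC gene, and GAS5 and DANCR carry small nucleolar RNAs in their introns and are themselves spliced to RNAs that are short-lived or regulatory.

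Each library held 8042435 to 10683593 counted reads, and the group medians were 9813352 in untreated, 9583119 in DAC, 10470624 in ATRA and 9935892 in DAC+ATRA cells. Mitochondrial transcripts took 40.6% to 42.5% of them in untreated, 37.0% to 40.4% in DAC, 38.9% to 41.1% in ATRA and 36.3% to 38.3% in DAC+ATRA libraries. Levels are normalized reads, that is, reads divided by a size factor for the library, and 3 reads equal 2.50 to 3.71 normalized reads. Libraries are named by their running number, 1 to 3 for untreated, 4 to 6 for DAC, 7 to 9 for ATRA and 10 to 12 for DAC+ATRA. Libraries of a group differed by more than counting noise (chi-square divided by its degrees of freedom, 2.36 for untreated libraries 2 and 3 and up to 10.4 for ATRA libraries 8 and 9), and each library correlated best with a library of its own group. The p-values measure only the spread between these libraries, which may be technical. In bulk RNA, fewer cells of a type and less RNA per cell cannot be told apart.

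The markers of the cell line were checked first. Of 13 myeloid genes, SPI1 (130 ± 10.9, SD, n = 3), CD33 (848 ± 42.5) and CD4 (3734 ± 254) were all read in untreated cells, while the defining granule gene PRTN3 had no read in any library and AZU1 and CD14 were near 0. The summed level of the myeloid genes, of which MPO was the most abundant, was 61563 to 68817 in untreated, 39032 to 56563 in DAC, 41618 to 59501 in ATRA and 36014 to 38783 in DAC+ATRA libraries. MPO fell from 52578 in untreated to 26797, 33292 and 15054 in the same order, while more of the 9 tested genes rose than fell, 5 against 1, 3 against 1 and 4 against 1 for DAC, ATRA and DAC+ATRA (limma, Benjamini-Hochberg adjusted p under 0.01; over all genes 28.2%, 6.68% and 31.1% rose and 12.4%, 2.93% and 17.4% fell). DESeq2 gave 3 higher with DAC, and the count lower with ATRA was 0 without filter and without ATRA library 9 or untreated library 1 or 2, while with DAC+ATRA it was 3 when scaled by reads outside mitochondrial transcripts. CSF1R, with 2 reads over the untreated libraries, was at least 9.10-fold higher with DAC+ATRA against a floor of 3 reads per library, and it passed the filter only through that group. Of 5 lymphoid genes, CD3E, CD3D and MS4A1 were at or near 0, and the sum, nearly all of it CD79A, was 133 to 143, 522 to 536, 229 to 374 and 1317 to 1395 in the same order. Of 5 erythroid genes, HBG1 was at 0, and the sum, led by KLF1, was 98.8 to 124, 91.9 to 104, 78.2 to 107 and 64.3 to 80.5. GATA1, with 1 read over the untreated libraries, moved the other way, with 12.8 ± 7.27 normalized reads in DAC and 6.70 ± 6.07 in DAC+ATRA libraries, at least 4.67-fold and 2.43-fold higher against the same floor, and it passed the filter only through these groups. These sums moved with treatment, and their part in the results for the long noncoding RNAs was not tested.

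Few of the annotated transcripts of the 6 genes held reads. Of the 91, 19 had a read in any library and 72 had none, and 9 reached 10 normalized reads in at least 3 libraries, the level required for a test. Many share all their bases with other annotated transcripts, so a transcript without reads is not shown to be absent. MALAT1 had reads on 1 of 18 transcripts, NEAT1 on 2 of 5, TUG1 on 3 of 9, PVT1 on 7 of 25, GAS5 on 3 of 29 and DANCR on 3 of 5. The 74433 reads on the 6 genes were spread unevenly, with 55339 on TUG1, 13751 on NEAT1, 4574 on MALAT1, 369 on PVT1, 254 on DANCR and 146 on GAS5.

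**Figure D1:**
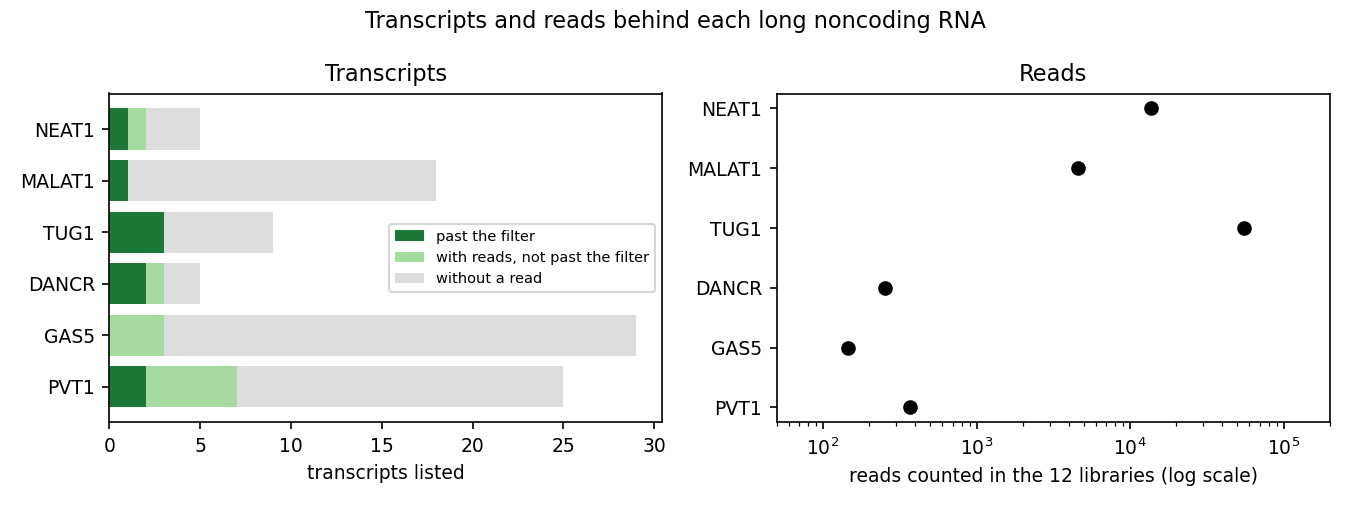
Annotated transcripts of each of the 6 genes (stacked bars: tested, with reads but not tested, without reads) and reads over all 12 libraries (points on a log axis). TUG1 holds the most reads and GAS5 the fewest, and GAS5 has the most annotated transcripts.

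By reads per symbol, TUG1, NEAT1 and MALAT1 ranked high and the rest did not. Summed by symbol, TUG1 stood above 98.5% of 13528 tested genes in mean normalized reads, NEAT1 above 91.1% and MALAT1 above 80.3%. PVT1 stood above 36.0%, DANCR above 26.8% and GAS5 above 13.1%. How reads on bases shared by several annotated transcripts were counted was not stated, and PVT1 transcripts ENST00000513868.6 (146 reads) and ENST00000520913.1 (125 reads) held reads although GENCODE 44 gives them 0 bases of their own. SNHG1 and SMARCB1, known to be widely expressed and named after their values were seen, had 0 reads in all libraries, so a low rank in these counts need not mean a low amount of RNA. The DANCR transcript ENST00000411630.6 had 0 reads. The reads of DANCR came from ENST00000441504.1 (116 reads, chr4:52712405-52718765, hg38, plus strand) and ENST00000444958.1 (121 reads, chr4:52712501-52721683), with 17 on ENST00000623036.1. The positions of ENST00000441504.1 and ENST00000444958.1 are those of later versions in GENCODE 44 and apply only nearly. GAS5 was read on ENST00000421068.5 (64 reads), a retained-intron form, on ENST00000454068.5 (67) and on ENST00000430245.5 (15), all on the minus strand of chromosome 1, and none of them passed the filter alone.

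Per kilobase of transcript length, the leading TUG1 transcript, ENST00000519077.3 (chr22:30969472-30978848, plus strand), had a mean of 787 normalized reads over the 12 libraries. The leading NEAT1 transcript had 49.3 and the MALAT1 transcript 35.6 on the same scale. Counted per kilobase of bases that no other transcript of the same strand covers in GENCODE 44, MALAT1 had 129 and NEAT1 59.0, so the order of NEAT1 and MALAT1 depended on the scale. The versions of the MALAT1 transcript and of the leading TUG1 transcript in GENCODE 44 were later than those counted, so these lengths apply to them only nearly. In untreated cells NEAT1 had 43.1 ± 0.353 (SD, n = 3) per kilobase of length and MALAT1 39.5 ± 0.232, and per kilobase of unshared bases 51.6 ± 0.423 and 143 ± 0.844, with SDs below counting noise.

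The counting mode and strand setting were not stated, so reads of a member and of a gene on the opposite strand over its exons cannot be told apart. Such genes were annotated for MALAT1 (AP000769.7), TUG1 (RP3-430N8.10 and RP3-430N8.11), PVT1 (RNU4-25P) and GAS5 (GAS5-AS1), and none for NEAT1 or DANCR. GAS5-AS1 had 253 reads, more than GAS5 itself, with 15.9 ± 5.58 normalized reads in untreated and 27.0 ± 4.76 in DAC+ATRA cells (log2 fold change 0.77, limma Benjamini-Hochberg adjusted p = 0.0238, not past the threshold of 0.01 used throughout). TALAM1, the antisense partner of MALAT1, was not in the file.

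NEAT1 is made as a short RNA that ends at an early polyadenylation site and as a long RNA that reads through it, and the long RNA is the one paraspeckles are built on. The long form, ENST00000501122.2 (chr11:65422798-65445540, hg38, plus strand, 1 exon, 22743 bases), held 13747 of the NEAT1 reads, and 18983 of its bases are covered by no other transcript. The short form, ENST00000499732.2, held 4 reads, 1 in ATRA library 7 and 3 in DAC+ATRA library 11. GENCODE 44 holds a later version of it (chr11:65422774-65426457), which has only 24 such bases, so these values apply only nearly to the version counted. The share of reads on the long form, 99.9% or more in every group mean, is therefore uninformative about how much of each form was made (exact permutation p = 1 for each treatment against untreated, 3 against 3, two-sided, where 0.1 is the smallest possible). The window around the end of the short form is shown because the choice between the forms is made there. It spans chr11:65426308-65426537 (hg38, plus strand, 230 bases), the end annotated in GENCODE 44 lies at 65426457, and 19083 bases of the long form follow. Capitals mark AATAAA, the polyadenylation signal, and TGTA, the letters to which the cleavage factor made of CPSF6 and NUDT21 is known to bind as UGUA in RNA.
NEAT1 short isoform end: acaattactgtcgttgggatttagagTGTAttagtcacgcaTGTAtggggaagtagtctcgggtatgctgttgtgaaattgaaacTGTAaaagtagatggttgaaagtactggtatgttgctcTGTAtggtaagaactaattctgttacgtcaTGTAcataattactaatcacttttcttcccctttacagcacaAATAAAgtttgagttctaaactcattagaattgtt
AATAAA occurred once, 46 bases after the annotated end, and TGTA occurred 5 times, with no overlap between matches. Only the plus strand was searched. Among 98 adjoining windows of the same length over the long form, 7.14% held AATAAA and 73.5% held TGTA, and 4 held TGTA at least 5 times. A match of letters is not by itself a site in use.

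The level of NEAT1 was 972, 978 and 988 normalized reads in untreated libraries 1 to 3. With DAC it was 998, 1203 and 1199, and with ATRA 849, 913 and 1005. With DAC+ATRA it was 1559, 1401 and 1382. The DAC+ATRA libraries lay above all 9 others. The DAC libraries lay above the untreated ones by a small margin in library 4, while the ATRA libraries overlapped with untreated. Group means were 979 ± 8.03 (SD, n = 3) in untreated, 1133 ± 117 in DAC, 922 ± 78.2 in ATRA and 1447 ± 97.1 in DAC+ATRA cells. The untreated SD was below the counting noise of 1058 to 1074 reads and is no measure of spread. Nearly all NEAT1 reads were assigned to the long form, so these levels need not be those of both forms together.

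The level of MALAT1, all on ENST00000534336.1 (chr11:65497640-65508073, plus strand, 1 exon), was 410, 411 and 415 in untreated cells. With DAC it was 346, 435 and 357, and with ATRA 264, 205 and 370. With DAC+ATRA it was 405, 408 and 428. All ATRA libraries lay below all untreated libraries, with library 8 lowest and library 9 near the DAC libraries, and DAC+ATRA overlapped with untreated. The mean was 280 ± 83.9 with ATRA and 412 ± 2.42 in untreated cells, where the SD was below the counting noise of 446 to 452 reads and is no measure of spread.

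TUG1 had the highest levels of the 6 genes, with 4952, 4474 and 4434 normalized reads in untreated, 4380, 4411 and 3705 in DAC, 4666, 3992 and 4767 in ATRA and 4618, 4682 and 4755 in DAC+ATRA libraries. ATRA and DAC+ATRA overlapped with untreated. The 3 DAC libraries lay below all untreated ones, library 6 furthest, and overlapped with ATRA. Its 3 transcripts with reads all passed the filter, and ENST00000519077.3 held 88.4% ± 0.340 of TUG1 reads in untreated, 88.0% ± 0.884 in DAC, 87.7% ± 0.979 in ATRA and 88.0% ± 0.240 in DAC+ATRA cells (exact permutation p = 0.7, 0.2 and 0.2 against untreated). This share was examined after the values were seen. ENST00000540687.5 held 6.92% in untreated (6.71% to 7.04%), 7.56% in DAC, 7.17% in ATRA and 7.45% in DAC+ATRA cells (7.15% to 7.87%), so DAC+ATRA did not overlap with untreated (exact permutation p = 0.3, 0.4 and 0.1). ENST00000602393.1 held 4.63% in untreated, 4.44% in DAC, 5.11% in ATRA and 4.57% in DAC+ATRA cells (exact permutation p = 0.4, 0.3 and 0.9).

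DANCR, which hosts SNORA26, had 28.5, 40.1 and 22.2 normalized reads in untreated libraries. It had 20.5, 24.4 and 20.9 with DAC, 15.8, 19.1 and 13.3 with ATRA and 16.3, 10.5 and 12.4 with DAC+ATRA. All ATRA and all DAC+ATRA libraries lay below all untreated ones, and untreated library 2 was high. GAS5, which hosts a run of C/D box small nucleolar RNAs, had 16.5, 11.8 and 16.6 in untreated, 9.73, 14.6 and 12.9 in DAC, 6.34, 10.9 and 10.8 in ATRA and 10.8, 10.5 and 8.65 in DAC+ATRA libraries. The ATRA and DAC+ATRA libraries lay below the untreated ones, at levels of a few reads where counting noise is large. PVT1 had 27.3 to 33.2 in untreated, 29.2 to 33.5 in DAC, 25.3 to 29.1 in ATRA and 24.4 to 40.0 in DAC+ATRA libraries, and all groups overlapped with untreated.

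**Figure D2:**
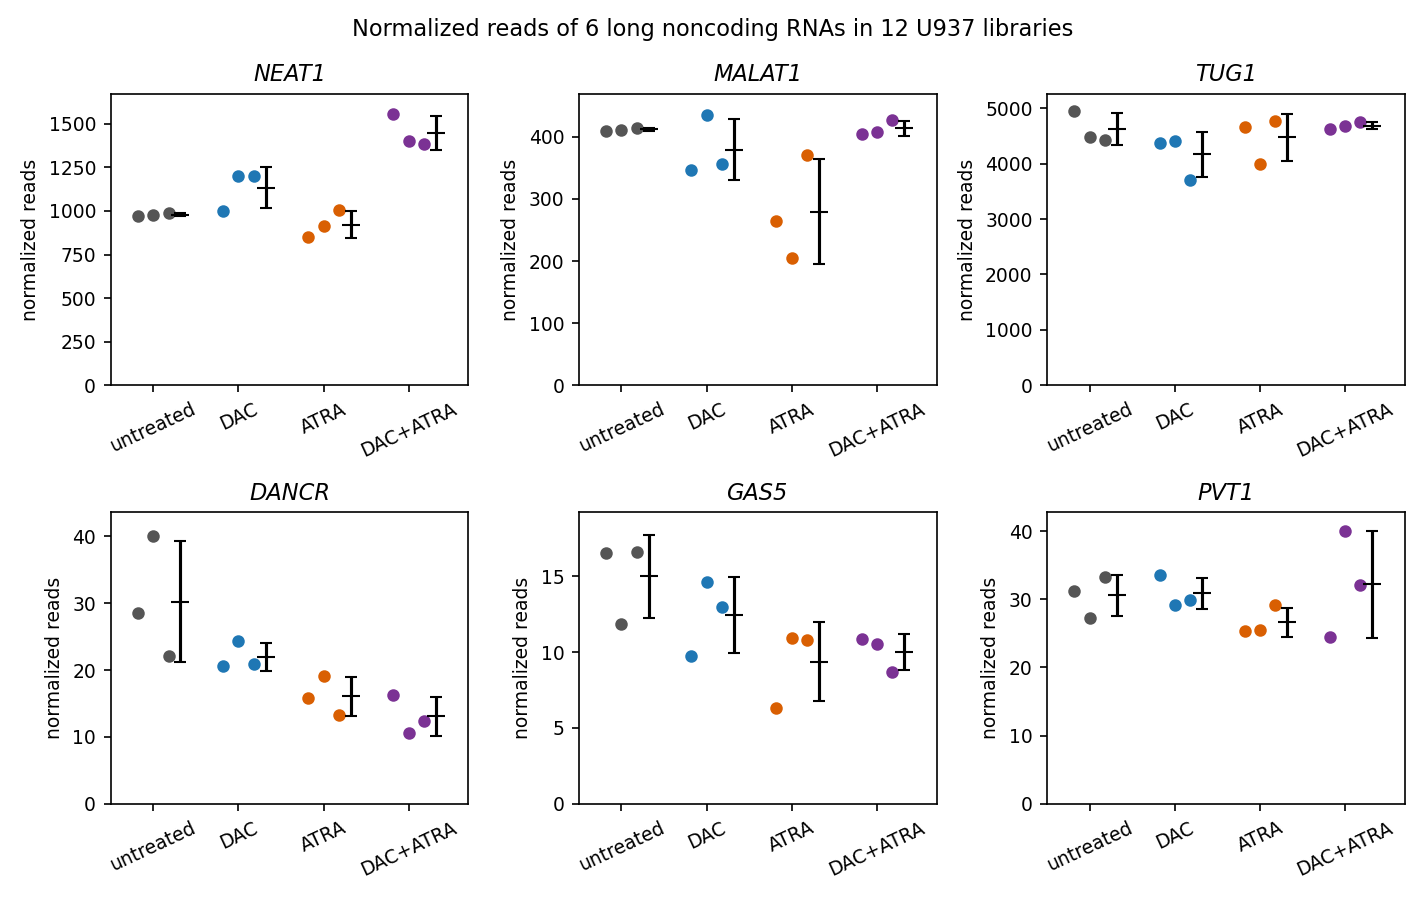
Normalized reads of each of the 6 genes, summed over transcripts, in the 4 groups; points are libraries, and black bars show the mean and SD (n = 3). NEAT1 is highest with DAC+ATRA, MALAT1 is lowest with ATRA, DANCR is lower with DAC+ATRA, and PVT1 overlaps between the groups. The means of DANCR with ATRA and of TUG1 with DAC lie below untreated but did not pass an adjusted p of 0.01 (limma, Benjamini-Hochberg, authors' size factors).

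DAC alone changed none of the 6 genes past the threshold, in a comparison where much of the transcriptome moved. The nearest was NEAT1, the paraspeckle scaffold, with a log2 fold change of 0.21 ± 0.10 (SE, n = 3; limma, Benjamini-Hochberg adjusted p = 0.0977). DANCR had -0.41 ± 0.27 (adjusted p = 0.216), GAS5 -0.25, TUG1 -0.15, MALAT1 -0.13 and PVT1 0.01. The count was 0 of 6 by limma, edgeR and DESeq2, against 40.6% of all 13528 genes tested by limma, and 0 of 6 had an unadjusted limma p under 0.05, against 57.7%. Of the 9 tested transcripts, 0 passed, against 33.5% of 19373, and 0 had an unadjusted p under 0.05, against 52.3%. The median log2 fold change was -0.14 over the 6 genes and 0.12 over all genes. GAS5, DANCR and PVT1, with 146, 254 and 369 reads over the 12 libraries, could pass only with large changes, so these counts do not show that they were stable. Scaled by all reads counted or by reads outside mitochondrial transcripts, TUG1 passed, with -0.28 (adjusted p = 0.00875) and -0.35 (adjusted p = 0.00227), and the median of all genes was 0.00 and -0.07. Relative to the median, TUG1 was at -0.27 with the authors' size factors and at -0.28 under both read totals. PVT1 took a negative sign under both scalings, under edgeR, under DESeq2 and without untreated library 2 or DAC library 4.

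ATRA alone lowered MALAT1, the speckle-associated RNA, and passed the threshold for no other member. MALAT1 was lower in 3 of 3 libraries, with a log2 fold change of -0.60 ± 0.15 (limma, Benjamini-Hochberg adjusted p = 0.00783). DANCR had -0.84 ± 0.27 (adjusted p = 0.0386) and GAS5 -0.65 ± 0.32 (adjusted p = 0.195), while NEAT1 had -0.09, TUG1 -0.05 and PVT1 -0.19. The count was 1 of 6 genes, against 9.61% of all genes, and 1 of 9 transcripts, against 6.97%. The call for MALAT1 was close to the threshold. It was lost without ATRA library 8 (-0.40, adjusted p = 0.0763), ATRA library 7 (-0.58, 0.0302), DAC library 4 (-0.60, 0.0112), DAC+ATRA libraries 10, 11 or 12 (-0.60 each; 0.0136, 0.0125 and 0.0117) and untreated libraries 1, 2 or 3 (-0.60, -0.60 and -0.59; 0.0245, 0.0292 and 0.0284). It was also lost with edgeR (-0.56, 0.0170), with only the groups compared (0.0410) and with a pseudocount of 0.1 (0.0117), and adjusted p over the left-out libraries ran from 3.93e-05 to 0.0763.

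With both agents, NEAT1 rose and DANCR fell against untreated cells, and MALAT1 was at its untreated level. NEAT1 was higher in 3 of 3 libraries by 0.56 ± 0.10 on the log2 scale, a fold of 1.47 (limma, Benjamini-Hochberg adjusted p = 6.47e-05). The rise is in reads assigned almost all to the long form of NEAT1, and whether both forms together rose was not tested. DANCR was lower in 3 of 3 libraries, with -1.13 ± 0.27 on the log2 scale, a fold of 0.456 (adjusted p = 0.00113). This holds for the DANCR transcripts with reads, and ENST00000411630.6 had 0 reads and could not be compared. MALAT1 had 0.01 ± 0.15 (adjusted p = 0.978), TUG1 0.02, PVT1 0.05 and GAS5 -0.53 ± 0.32 (adjusted p = 0.154). The count was 2 of 6, with 48.5% of all genes past the threshold, so a count of this size is near the background. By transcript, 1 of 9 passed, against 41.6% of all transcripts. It was the long form of NEAT1 (0.56, adjusted p = 8.19e-05), while the DANCR transcripts ENST00000441504.1 (-1.45, adjusted p = 0.0111) and ENST00000444958.1 (-0.96, adjusted p = 0.0561) did not pass singly.

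The value of NEAT1 depended on the scaling. The median log2 fold change of all genes was 0.11 with the authors' size factors, -0.04 when scaled by all reads and -0.14 when scaled by reads outside mitochondrial transcripts. Under the last, NEAT1 had 0.31 (adjusted p = 0.0200) and was not past the threshold. Relative to the median of all genes, NEAT1 was higher by 0.45 with the authors' size factors and by 0.45 with reads outside mitochondrial transcripts. DANCR was at -1.24 and -1.23 relative to the median under the same scalings. MALAT1 and TUG1 took a negative sign under edgeR, DESeq2 and both read totals, with no call. The call for DANCR was lost without untreated library 2, where it had -0.92 (adjusted p = 0.0142).

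**Figure D3:**
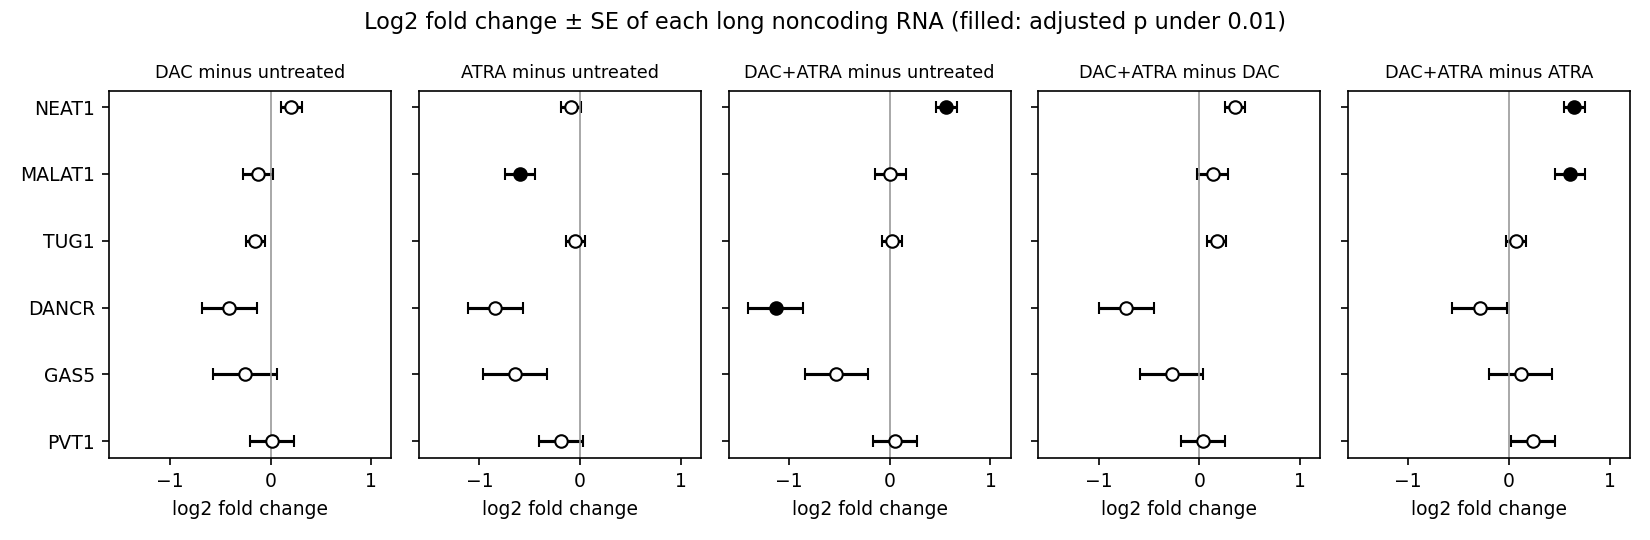
Log2 fold changes with standard errors of the 6 genes in 5 comparisons; filled points passed an adjusted p of 0.01 (limma, Benjamini-Hochberg). NEAT1 passes with DAC+ATRA against untreated and against ATRA, MALAT1 with ATRA and with DAC+ATRA against ATRA in opposite directions, and DANCR with DAC+ATRA against untreated.

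Set against ATRA alone, DAC+ATRA had more NEAT1 and more MALAT1, the RNAs of neighbouring genes on chromosome 11. NEAT1 was higher by 0.65 ± 0.10 on the log2 scale, a fold of 1.57 (limma, Benjamini-Hochberg adjusted p = 1.44e-05), and MALAT1 by 0.60 ± 0.15, a fold of 1.52 (adjusted p = 0.00215). Each was higher in 3 of 3 libraries than in all ATRA libraries. The other members had 0.24 (PVT1), 0.12 (GAS5), 0.07 (TUG1) and -0.29 (DANCR). The count was 2 of 6 genes and 2 of 9 transcripts, against 37.1% and 29.4% of all tested. MALAT1 was no longer past the threshold without ATRA library 8 (0.40, adjusted p = 0.0245), without DAC+ATRA library 12 (0.58, 0.0109), with edgeR (0.48, 0.0151) and with scaling by all reads (0.53, 0.0163) or by reads outside mitochondrial transcripts (0.46, 0.0368). NEAT1 passed under each alternative run, with 0.51 to 0.71.

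Set against DAC alone, DAC+ATRA showed no member past the threshold. NEAT1 came nearest, with 0.36 ± 0.10 (limma, Benjamini-Hochberg adjusted p = 0.0161), and all 3 of its DAC+ATRA libraries lay above all DAC libraries. DANCR had -0.72 ± 0.27 (adjusted p = 0.0689), GAS5 -0.28, TUG1 0.17, MALAT1 0.13 and PVT1 0.03. The count was 0 of 6 by limma, against 12.3% of all genes, and 1 of 6 by edgeR and by DESeq2. At an unadjusted limma p under 0.05 it was 2 of 6 (NEAT1 and DANCR), against 29.9%. Of the transcripts, 0 of 9 passed by limma, against 8.77%, and 2 had an unadjusted p under 0.05, against 25.4%. NEAT1 passed with edgeR (0.38, adjusted p = 0.00534), with DESeq2 (0.37, 0.00597) and without ATRA library 9 (0.36, 0.00484), which enters only through the shared estimate of spread.

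The interaction, the part of the DAC+ATRA log2 change beyond the sum of both single-agent changes, was tested for each member. MALAT1 had 0.73 ± 0.21 (limma, Benjamini-Hochberg adjusted p = 0.0506) and NEAT1 0.45 ± 0.14 (adjusted p = 0.0844). These were followed by GAS5 with 0.37, PVT1 and TUG1 with 0.22 each and DANCR with 0.12. The count was 0 of 6 by limma, edgeR and DESeq2, against 2.46% of all genes by limma, and 2 of 6 (MALAT1 and NEAT1) had an unadjusted limma p under 0.05, against 17.1%. By transcript it was 0 of 9, against 1.51%, and 2 had an unadjusted p under 0.05, against 14.4%. Without ATRA library 9, whose MALAT1 level was the highest of its group, the interaction of MALAT1 was 0.95 (adjusted p = 0.000666), and without ATRA library 8, whose level was the lowest, it was 0.53 (adjusted p = 0.160). The comparisons above share libraries, so they are not independent of each other.

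The ratio of NEAT1 to MALAT1 reads does not depend on the size factors, and it was examined after the values were seen. There were 2.38 ± 0.00551 NEAT1 reads per MALAT1 read in untreated cells, with 2.37 to 2.38 in single libraries, closer together than counting noise leads one to expect. The ratio was 2.76 to 3.36 with DAC, 2.71 to 4.46 with ATRA and 3.23 to 3.85 with DAC+ATRA, and no treated library overlapped with untreated. The exact permutation p was 0.1 for each treatment, two-sided and the smallest that 3 against 3 libraries allow. The means were 3.00 ± 0.317, 3.46 ± 0.898 and 3.50 ± 0.315.

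The genes whose levels were most like those of each member over the 12 libraries were found among 4490 tested genes with a mean of at least 50 and a range of group means of at least 0.5 on the log2 scale. The Pearson r of log2 levels is a description of 12 libraries that share treatments and depth. GSK3A (r = 0.958), PHLDB1 (0.956) and HEMK1 (0.955) were most like NEAT1, and PHLDB1 had group means of 203 in untreated, 430 in DAC, 213 in ATRA and 877 in DAC+ATRA cells. SNTB2 (0.844), NABP1 (0.829) and KDM7A (0.815) were most like MALAT1, and SNTB2 had 260, 254, 157 and 342 in the same order. ASPH (0.895) and SETD6 (0.876) were among the 3 most like DANCR, and ASPH had 278, 185, 130 and 104. AGRN (0.804), NOC2L (0.781) and ZFYVE21 (0.771) were most like GAS5, and PSME4 (0.854) and MED21 (0.819) were among the 3 most like TUG1. For PVT1 the values were lower, with SNX6 (0.622), SCYL3 (0.617) and SNTB2 (0.588). Between members, r ran from -0.44 for NEAT1 with DANCR to 0.56 for MALAT1 with NEAT1, and GAS5 with DANCR had 0.53.

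RNAs of proteins that bind NEAT1 or sit in paraspeckles moved mostly downward with DAC, while the most abundant one moved up. No protein was measured. Of 27 listed, 25 were tested. With DAC, 3 rose and 14 fell, with ATRA 1 fell, and with DAC+ATRA 2 rose and 11 fell (limma), with medians of -0.45, -0.13 and -0.36 against 0.12, 0.00 and 0.11 over all genes. Higher past the threshold were 28.2%, 6.68% and 31.1% of all genes, and lower 12.4%, 2.93% and 17.4%. SFPQ, a core paraspeckle protein and the most abundant of the list, went from 6725 ± 1625 normalized reads in untreated to 12347 in DAC, 8565 in ATRA and 12568 ± 606 in DAC+ATRA cells. Its log2 fold changes were 0.89 with DAC and 0.93 with DAC+ATRA, both past the threshold, and 0.34 with ATRA (adjusted p = 0.295). WTAP, of the m6A writer, rose by 0.46 with DAC and 0.46 with DAC+ATRA, and RBM14, needed for intact paraspeckles, rose by 0.48 with DAC. The naming of WTAP and RBM14 and of the proteins other than SFPQ and MATR3 followed after their values were seen.

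MATR3, a nuclear matrix protein of paraspeckles, fell in all 3 treatments, from 619 ± 55.2 to 199 in DAC, 352 in ATRA and 133 ± 9.91 in DAC+ATRA cells (log2 -1.65, -0.83 and -2.21). NONO, the partner of SFPQ, went from 961 to 454, 874 and 443 and fell with DAC (-1.07) and DAC+ATRA (-1.10). The factors that favour the short NEAT1 end, CPSF6 and NUDT21, fell with DAC (-1.28 and -0.70) and with DAC+ATRA (-1.37 and -0.90). CPSF6 went from 648 ± 52.7 to 276, 453 and 258, and NUDT21 from 4244 ± 215 to 2638, 3566 and 2281. HNRNPK, known to oppose that end, fell with DAC (-0.55) and had -0.41 with DAC+ATRA (adjusted p = 0.0323). The reads on the short form were too few to compare with these levels. Without DAC library 6, 1 of these RNAs rose and 7 fell with DAC, and without untreated library 3, 1 rose and 9 fell. With DAC+ATRA, 1 rose without untreated library 1 or 3 or DAC+ATRA library 11 and with edgeR, and scaling by either read total left 1 higher with DAC and 1 higher with DAC+ATRA.

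**Figure D4:**
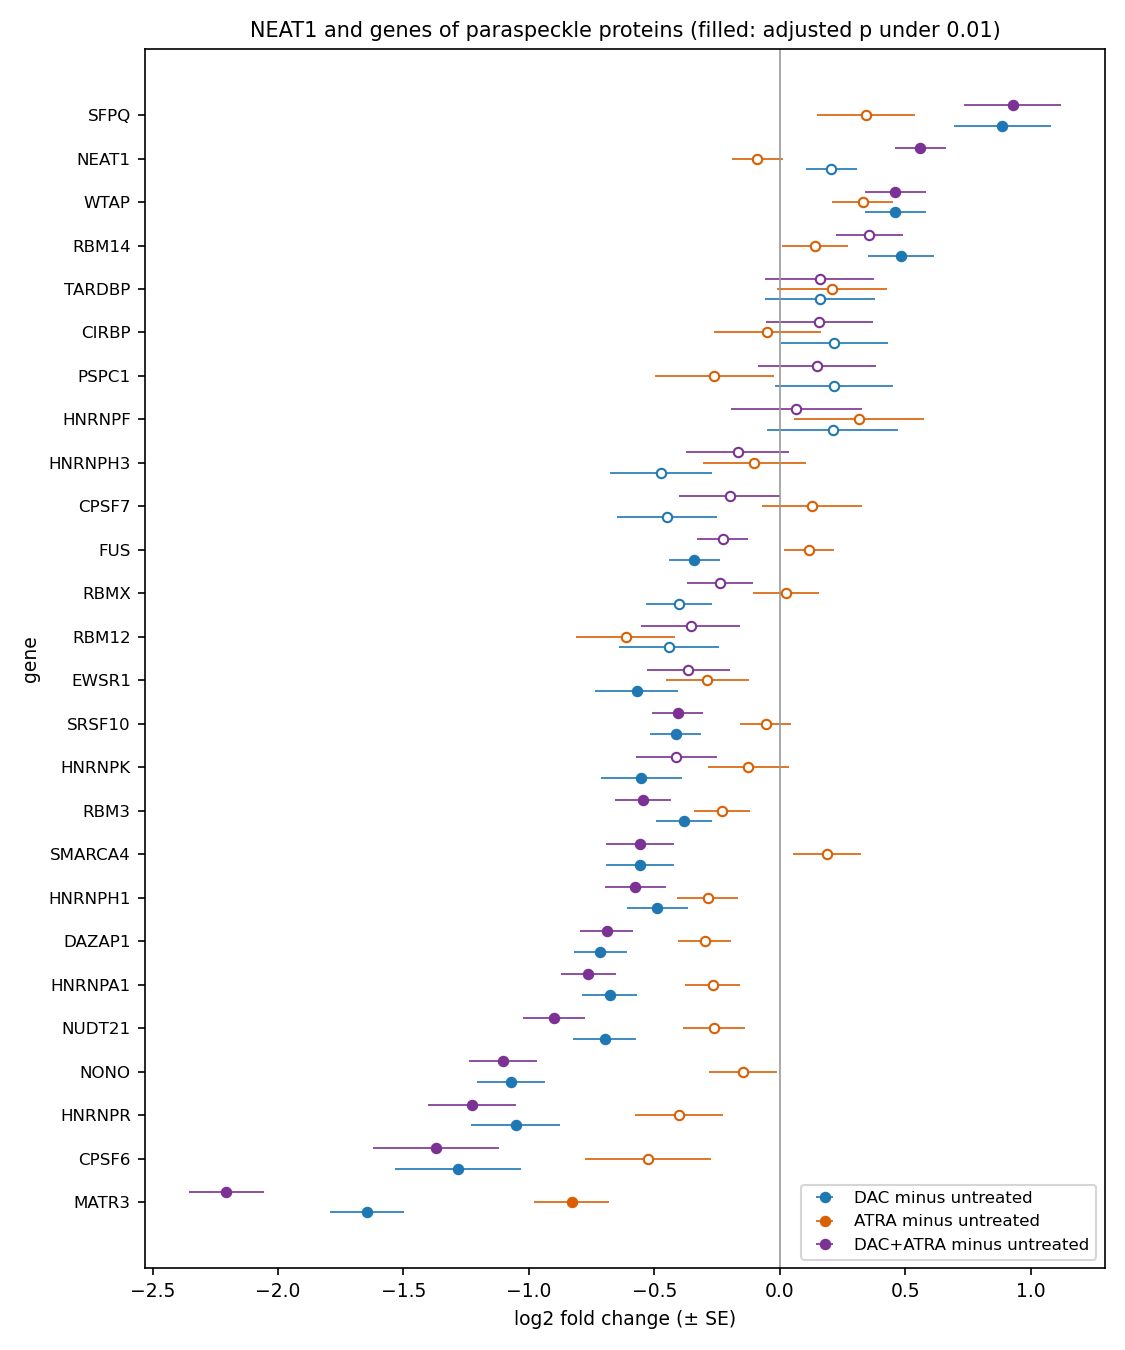
Log2 fold changes against untreated of NEAT1 and the RNAs of 25 tested paraspeckle proteins for DAC, for ATRA and for both agents; filled points passed an adjusted p of 0.01 (limma, Benjamini-Hochberg). NEAT1 and SFPQ lie to the right with DAC+ATRA, while MATR3, CPSF6, NONO and NUDT21 lie to the left.

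The splicing factors of nuclear speckles and the enzymes that shape the MALAT1 end were listed together, and 11 of 12 were tested. SRSF11 was the 1 lower with DAC (-0.87) and the 1 lower with DAC+ATRA (-0.84), and SRSF7 was the 1 higher with ATRA (1.63, limma adjusted p = 1.33e-07), against 12.4% and 17.4% of all genes lower and 6.68% higher in these comparisons. SRSF7 and SRSF11 were named after their values were seen. SRSF7 went from 57.8 ± 11.3 in untreated to 179 ± 4.95 with ATRA and 78.9 ± 4.43 with DAC+ATRA (0.46, adjusted p = 0.0213). SRRM2, the most abundant, had 0.03 with DAC+ATRA, and the extremes there were SRSF5 with 0.73 (adjusted p = 0.0176) and SRSF1 with -0.96 (adjusted p = 0.0543). The lower count was 0 with DAC without untreated library 1, and with DAC+ATRA it was 0 without untreated library 1 or DAC+ATRA library 11 (limma; 2 and 4 of the 11 had an unadjusted p under 0.05 with all libraries, and edgeR and DESeq2 gave 1 each). It was 3 without DAC+ATRA library 10 and 5 when scaled by reads outside mitochondrial transcripts.

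Of 10 tested genes of Polycomb repressive complex 2, to which TUG1 has been linked, 5 fell with DAC and 5 with DAC+ATRA, against 12.4% and 17.4% of all genes (limma; edgeR gave 7 and 6 lower and DESeq2 5 and 5). With ATRA 0 passed by limma, edgeR or DESeq2, and 1 had an unadjusted limma p under 0.05. EZH2, the methyltransferase of the complex, went from 48.9 ± 5.78 to 22.0 ± 7.10 with DAC+ATRA (-1.16). RBBP4, the most abundant, had -0.31 (adjusted p = 0.00653) and PHF19 had -0.05 (adjusted p = 0.717). The count lower with DAC was 3, 1 and 2 without untreated libraries 1, 2 and 3 and 3 without DAC library 4 or 6, and with DAC+ATRA it was 3 without untreated library 2 or 3 or DAC+ATRA library 10 or 11.

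DANCR belongs with a wider set of genes that host small nucleolar RNAs, and most of those tested fell with DAC+ATRA. Of 25 other host genes, 21 had reads and 17 were tested. With DAC 2 rose and 8 fell, with ATRA 5 fell, and with DAC+ATRA 2 rose and 12 fell (limma), with medians of -0.86, -0.49 and -1.05 against 0.12, 0.00 and 0.11 over all genes. Lower past the threshold were 12.4%, 2.93% and 17.4% of all genes, and higher 28.2%, 6.68% and 31.1%. SNHG19, the most abundant, went from 797 ± 16.7 in untreated to 361 under DAC, 549 under ATRA and 209 ± 17.0 under both (-1.16, -0.54 and -1.93), and SNHG4 from 245 ± 4.60 to 93.2, 157 and 56.6 ± 9.99 (-1.40, -0.65 and -2.11). The 5 that fell with ATRA were SNHG3, SNHG4, SNHG15, SNHG19 and EPB41L4A-AS1, named after their values were seen.

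The 2 that rose were SNHG14, the host in the imprinted region of chromosome 15 (1.30 with DAC and 0.99 with DAC+ATRA), and SNHG24. SNHG14 was named after its values were seen. SNHG24 had 0 reads in all untreated and ATRA libraries. It had 19.6 ± 1.48 normalized reads with DAC and 11.9 ± 6.60 with DAC+ATRA, and it passed the filter only through these groups. Against a floor of 3 reads per library, it was at least 7.13-fold and 4.32-fold higher. Within this set GAS5, at -0.25, -0.65 and -0.53, passed in no treatment, and DANCR passed with DAC+ATRA. The call for DANCR rests on 254 reads over the 12 libraries, with 0 on ENST00000411630.6. The count lower with ATRA was 1, 2 and 1 without untreated libraries 1, 2 and 3 and 3 without ATRA library 8. With DAC, edgeR and both read totals gave 12 lower, and with the requirement of 10 normalized reads in every library 1 host was higher with DAC and 1 with DAC+ATRA.

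**Figure D5:**
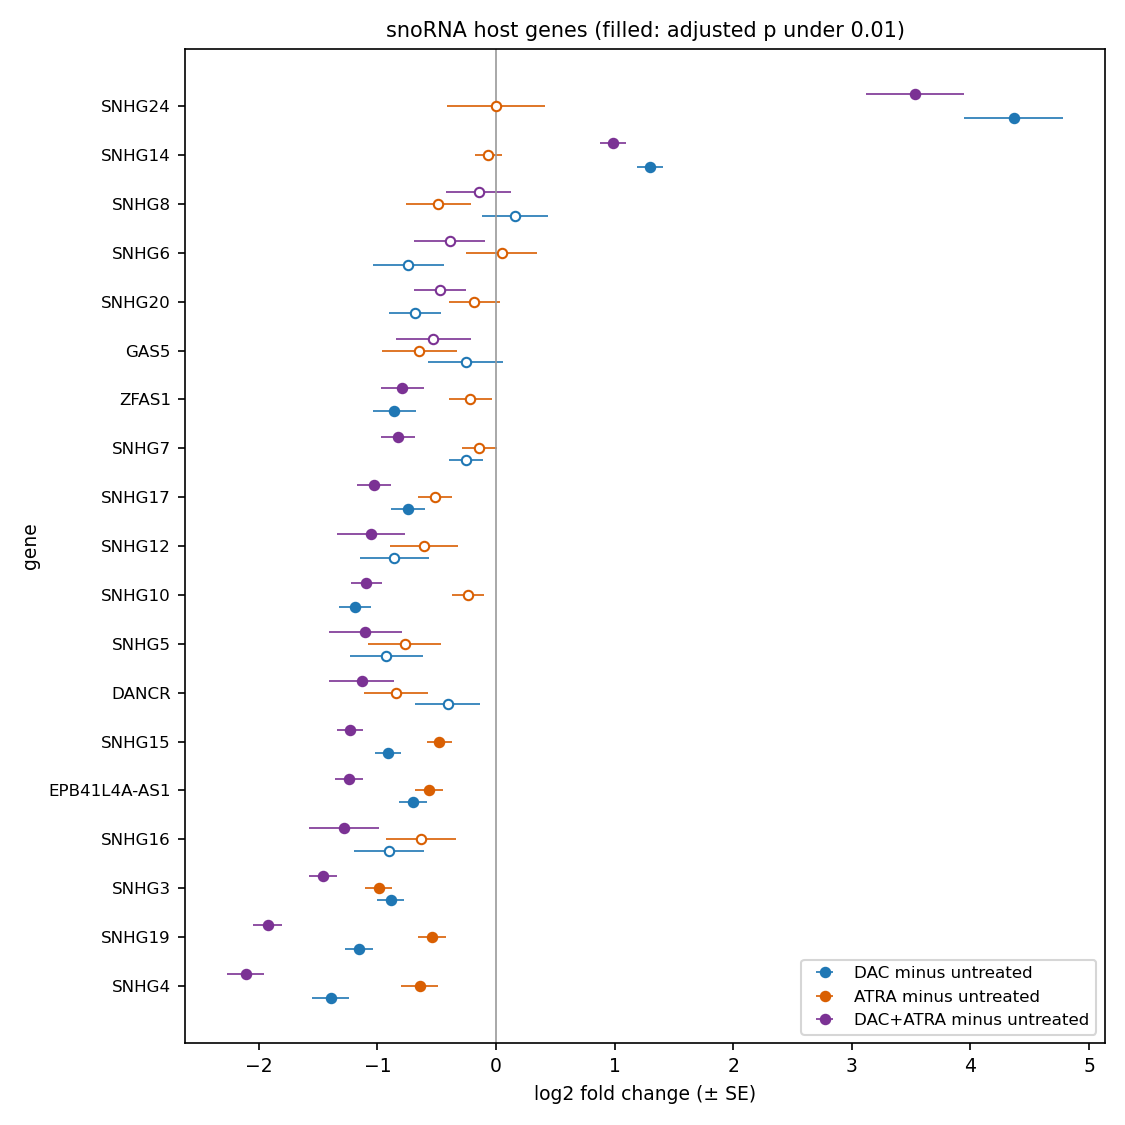
Log2 fold changes against untreated of GAS5, DANCR and 17 tested snoRNA host genes for DAC, for ATRA and for both agents; filled points passed an adjusted p of 0.01 (limma, Benjamini-Hochberg). Most hosts lie to the left with DAC+ATRA, SNHG24 and SNHG14 lie to the right, and GAS5 is unfilled in all 3.

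Many host genes are known to begin their RNA with a run of pyrimidines, as the genes of the translation machinery do. Start windows are shown for that reason, from 10 bases before to 20 bases from the RefSeq start (GRCh38.p14), on the strand of the gene. Not all windows are shown. Among those left out are EPB41L4A-AS1 and SNHG16, which fell with DAC+ATRA and held no run. Also left out are GAS5 and SNHG20, which did not pass and held none, and SNHG18, which held a run and was not tested. Capitals mark a run of at least 5 C or T bases that begins with C within 3 bases of the start. The search rule was set after the sequences and fold changes were seen, so no test is given.
DANCR: tgcgcgccccgCCCTTgcccagagtcttcc
SNHG4: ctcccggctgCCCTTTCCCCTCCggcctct
SNHG19: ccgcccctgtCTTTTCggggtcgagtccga
SNHG12: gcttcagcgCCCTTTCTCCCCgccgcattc
SNHG5: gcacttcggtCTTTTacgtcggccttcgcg
SNHG7: ccttctcgtCCTCTgcgtgcgccggaggct
SNHG17: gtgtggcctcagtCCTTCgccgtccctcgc
ZFAS1: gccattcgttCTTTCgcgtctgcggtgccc
SNHG3: gtgagtttctgattctctaactgcgcatgc
SNHG10: cttatgccggagcctcatcctactgcctta
SNHG14: gtcctcctgcgccgacctcgaatgcggtcc
SNHG8: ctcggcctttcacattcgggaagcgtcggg
Such a run was in 13.0% of 35116 promoters. Windows were at hand for GAS5, DANCR and 19 of the other hosts, and 9 of these 21 held a run. Of the 12 with a window that fell with DAC+ATRA, DANCR included, 8 held one (DANCR, SNHG4, SNHG5, SNHG7, SNHG12, SNHG17, SNHG19 and ZFAS1), and of 4 others tested (SNHG8, SNHG14, SNHG20 and GAS5), 0 did. By the positions given below, the windows of GAS5 and DANCR do not show whether their transcripts with reads begin with a run. Their places in these counts are therefore uninformative. With the first C within 1 base the counts were 7 and 0 (8.14% of all promoters), within 5 bases 9 and 1 (21.1%), with a run of at least 4 bases 9 and 0 (19.6%), and with at least 6 bases 3 and 0 (8.56%). The window of DANCR lies at chr4:52712384-52712413 (plus strand), and its run ends before the first DANCR transcript with reads, which starts at 52712405 in GENCODE 44. The version there is later than that counted. By that start, the run does not show the start of those transcripts. That of GAS5, at chr1:173869026-173869055 (minus strand), lies upstream of every GAS5 transcript with reads, the furthest of which spans chr1:173863901-173868882, and has the same limit. Over the 300 bases around the start, the DANCR promoter held 27 CpGs, TUG1 28, MALAT1 37 and 14 at its 2 entries and GAS5 5, against a median of 14 over all promoters.

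The small RNAs inside the members were hardly read in these libraries. Of 18 listed, 14 were in the file and 4 had reads. SNORA26, in DANCR, had 151 reads and went from 16.5 ± 0.889 in untreated to 7.91 ± 2.27 with DAC+ATRA (log2 -1.01, limma adjusted p = 0.0102, not past the threshold). It passed with edgeR, under both read totals and without ATRA library 9, DAC library 4 or DAC+ATRA library 12, and not with DESeq2. MIR1208, beside PVT1, had 22 reads, MIR4449, in DANCR, 5 and SNORD77, in GAS5, 1. The other 10, among them SNORD44, SNORD74, SNORD81 and MIR612, had 0.

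Of 10 listed factors of nonsense-mediated decay, the pathway known to degrade spliced GAS5 and other host RNAs, 7 were tested, and 3 rose with DAC, 1 with ATRA (SMG6, 0.73) and 3 with DAC+ATRA. These counts were near the 28.2%, 6.68% and 31.1% of all genes that rose, and the other tested factors did not pass. SMG6, the endonuclease of the pathway, had 0.65 with DAC+ATRA, and SMG5, the most abundant, 0.44. With DAC the count was 1 without DAC library 5 or 6 or untreated library 2 or 3, and 0 when scaled by reads outside mitochondrial transcripts (limma; 3 had an unadjusted p under 0.05 with the authors' size factors, and edgeR gave 2 and DESeq2 3). Of the genes that lie beside the members, 8 of 11 were tested, and 3 rose with DAC and 3 with DAC+ATRA (limma), also near 28.2% and 31.1%. With DAC the count higher was 1 with edgeR, with DESeq2, with 10 normalized reads in every library, with only the groups compared, when scaled by reads outside mitochondrial transcripts and without DAC library 4 or 6 or untreated library 1 or 2, and with DAC+ATRA it was 1 with 10 normalized reads in every library. None was lower by limma (1 with DAC and 1 with DAC+ATRA had an unadjusted p under 0.05). With DAC 1 was lower by edgeR, by DESeq2, under both read totals and without ATRA library 9 or untreated library 1, and with DAC+ATRA 1 was lower by edgeR, with only the groups compared, when scaled by all reads and without ATRA library 9 or untreated library 1, and 2 when scaled by reads outside mitochondrial transcripts. LTBP3, near NEAT1 and MALAT1, had 5.21 ± 3.74 in untreated and 27.2 ± 5.85 with DAC+ATRA (2.35). Its untreated mean was below the 10 normalized reads required for a test, so it passed the filter through treated libraries. SMTN had -0.48 with DAC+ATRA (limma adjusted p = 0.0210).

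Of 43 other named long noncoding RNAs, 26 were tested, and 6 rose and 6 fell with DAC, 1 rose and 2 fell with ATRA, and 8 rose and 6 fell with DAC+ATRA (limma), with medians of 0.08, -0.09 and 0.26. Past the threshold in either direction were 40.6%, 9.61% and 48.5% of all genes. MEG3, an imprinted RNA, had 0 reads in untreated libraries, 221 ± 54.6 normalized reads under DAC, 0.277 under ATRA and 158 ± 8.98 under both. It was at least 80.2-fold and 57.2-fold higher with DAC and with DAC+ATRA against a floor of 3 reads per library. MEG3 passed the filter only through these groups. CRNDE went from 183 ± 17.6 to 61.9, 106 and 34.8 (-1.57, -0.79 and -2.38). LINC00657, the most abundant and also known as NORAD, went from 6239 ± 283 to 9039 ± 616 with DAC+ATRA (0.53, adjusted p = 3.21e-05). With ATRA, HOTAIRM1, a myeloid RNA of the HOXA cluster, rose (0.84, adjusted p = 0.00991), and CRNDE and KCNQ1OT1 (-0.64) fell, the naming of HOTAIRM1 and KCNQ1OT1 coming after their values were seen. The count lower with ATRA was 0 without ATRA library 8 or any 1 of the untreated libraries and 1 without ATRA library 7. The count higher was 0 without ATRA library 7, 8 or 9, DAC library 4, any 1 of the DAC+ATRA libraries or untreated library 1 or 3 (limma; with all libraries 7 were lower and 3 higher at an unadjusted p under 0.05, and edgeR and DESeq2 each gave 3 lower and 1 higher).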

How the data were processed

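Per the authors' description, reads were aligned to hg38 with STAR, counted per transcript with htseq-count and normalized with DESeq2, and the versions, annotation release, counting mode and strand setting were not stated. The deposited values are signal, reads per transcript divided by 1 size factor for each library, and whole reads were recovered from 100% of them within 0.01 read. The table has 12 library columns and 0 columns of no sample. Values were summed by symbol. Symbols (13528) and transcripts (19373) with at least 10 normalized reads in at least 3 libraries were tested with limma 3.58.1 in R 4.3.3 (lmFit, contrasts.fit, eBayes with trend and robust) on log2(normalized reads + 1). All 12 libraries entered 1 fit, p-values were adjusted by Benjamini-Hochberg over all symbols or transcripts tested, and the threshold was an adjusted p under 0.01. The plan named this test for normalized values and edgeR for raw counts, and normalized values were found. Transcripts were placed with GENCODE 44, which held 85 of the 91 transcripts of the 6 genes by identifier, 24 in the same version, and 174768 of 197782 in all.

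Alternatives were edgeR 4.0.16 (quasi-likelihood, TMM) and DESeq2 1.42.0 on the recovered reads, scaling by all reads or by reads outside mitochondrial transcripts, a pseudocount of 0.1, no filter, 10 normalized reads in every library, only the groups compared, a threshold of 0.05 and each library left out. Shares and ratios were compared by two-sided exact permutation of 3 against 3 libraries. Named were all 6 genes and each transcript that was tested, from each list the highest and lowest change with DAC+ATRA and the most abundant gene, and for each member the 3 genes with the highest Pearson r, with a few of these left unnamed. Cell type markers were named in the plan. Further names are marked as chosen after their values were seen. The members and lists were chosen with earlier results of these data known. Sequences are from RefSeq promoters (GRCh38.p14), where 4 of the 6 genes matched (NEAT1 and PVT1 had no entry), and from the hg38 genome. Tables and figures were made with pandas 2.3.3, numpy 2.4.6, matplotlib 3.10.9 and scipy 1.17.1 under Python 3.11.15. Floors of 3 reads cover counting error only.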

Additional observations from a re-analysis of the deposited data

Results flagged for a closer look

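Among 52 genes chosen for naming, 4 had effects of DAC that differed with and without ATRA by the test of the DAC and ATRA interaction (limma, Benjamini-Hochberg adjusted). SNTB2, a syntrophin whose level was most like that of MALAT1, had an interaction of 1.15 on the log2 scale (adjusted p = 0.000622). PHLDB1, whose level was among those most like NEAT1, had 0.98 (adjusted p = 0.00375). SRSF7, a splicing factor of nuclear speckles, had -1.04 (adjusted p = 0.00968), and PHF19, a Polycomb-like subunit of repressive complex 2, had -0.72 (adjusted p = 0.00866). SNTB2 and PHLDB1 were chosen because their levels follow MALAT1 and NEAT1 over the same 12 libraries, and SRSF7 after its values were seen. SNTB2 passed in 12 of 12 fits with 1 library left out and under 7 of 7 other settings, PHLDB1 in 5 and under 6, and SRSF7 and PHF19 each in 2 and under 2, with edgeR not among them (adjusted p = 0.0148 and 0.0106) and DESeq2 among them (0.00918 and 0.00245). Of all genes tested, 2.46% passed in this comparison. None of the 6 long noncoding RNAs passed by limma, edgeR or DESeq2, and 2 of 6 had an unadjusted limma p under 0.05, against 17.1% of all genes.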

How the results depend on the processing

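At the gene level, 279 of 312 values under another setting kept their direction and their side of the threshold, 20 changed sign, 6 passed only there and 7 no longer passed. With 1 library left out the counts were 402, 16, 2 and 12 of 432. At the transcript level they were 416, 23, 7 and 7 of 453 and 598, 34, 3 and 13 of 648. The values that changed sign had not passed the threshold before and are given below on the log2 scale, and the cause was not tested. With DESeq2, the count past the threshold became 1 with DAC+ATRA against DAC among genes and 0 with ATRA among transcripts. For DAC, DESeq2 gave PVT1 -0.054. For DAC+ATRA, DESeq2 gave MALAT1 -0.043, TUG1 -0.028, ENST00000602393.1 0.0056 and ENST00000520913.1 0.028. For the interaction, DESeq2 gave ENST00000513868.6 -0.025 and ENST00000441504.1 0.21. With edgeR, the count past the threshold became 0 with ATRA, 1 with DAC+ATRA against DAC and 1 with DAC+ATRA against ATRA among genes. For DAC, edgeR gave PVT1 -0.10. For DAC+ATRA, edgeR gave MALAT1 -0.077, PVT1 -0.021, TUG1 -0.061, ENST00000519077.3 -0.023 and ENST00000534336.1 -0.031. For DAC+ATRA against ATRA, edgeR gave TUG1 -0.0019. For the interaction, edgeR gave ENST00000513868.6 -0.018 and ENST00000441504.1 0.24. With scaling by all reads, the count past the threshold became 1 with DAC and 1 with DAC+ATRA against ATRA among genes and 1 with DAC, 0 with ATRA, 2 with DAC+ATRA and 1 with DAC+ATRA against ATRA among transcripts. For DAC, scaling by all reads gave PVT1 -0.11. For DAC+ATRA, scaling by all reads gave MALAT1 -0.14, PVT1 -0.096, TUG1 -0.13, ENST00000540687.5 -0.021, ENST00000519077.3 -0.13, ENST00000513868.6 -0.018 and ENST00000534336.1 -0.14. For DAC+ATRA against ATRA, scaling by all reads gave TUG1 -0.0082 and ENST00000519077.3 -0.0039. For ATRA, scaling by all reads gave ENST00000540687.5 -0.068. With scaling by reads outside mitochondrial transcripts, the count past the threshold became 1 with DAC, 1 with DAC+ATRA and 1 with DAC+ATRA against ATRA among genes and 1 with DAC and 1 with DAC+ATRA against ATRA among transcripts. For DAC, scaling by reads outside mitochondrial transcripts gave PVT1 -0.18 and ENST00000513868.6 -0.015. For DAC+ATRA, scaling by reads outside mitochondrial transcripts gave MALAT1 -0.24, PVT1 -0.19, TUG1 -0.23, ENST00000540687.5 -0.12, ENST00000519077.3 -0.23, ENST00000513868.6 -0.11 and ENST00000534336.1 -0.24. For DAC+ATRA against DAC, scaling by reads outside mitochondrial transcripts gave PVT1 -0.013. For DAC+ATRA against ATRA, scaling by reads outside mitochondrial transcripts gave GAS5 -0.014, TUG1 -0.072, ENST00000540687.5 -0.016 and ENST00000519077.3 -0.068. For ATRA, scaling by reads outside mitochondrial transcripts gave ENST00000540687.5 -0.10 and ENST00000602393.1 -0.020. With only the groups compared, the count past the threshold became 0 with ATRA among genes and 0 with ATRA among transcripts. With a pseudocount of 0.1, the count past the threshold became 0 with ATRA among genes and 0 with ATRA among transcripts. With a threshold of 0.05, the count past the threshold became 2 with ATRA and 1 with DAC+ATRA against DAC among genes and 2 with DAC+ATRA and 1 with DAC+ATRA against DAC among transcripts. With no filter, the count past the threshold became 2 with DAC+ATRA among transcripts. With 1 library left out, the count past the threshold ran over 0 to 1 genes with ATRA, 0 to 1 transcripts with ATRA, 1 to 2 genes with DAC+ATRA, 1 to 2 transcripts with DAC+ATRA, 0 to 1 genes with DAC+ATRA against DAC, 0 to 1 transcripts with DAC+ATRA against DAC, 1 to 2 genes with DAC+ATRA against ATRA, 1 to 2 transcripts with DAC+ATRA against ATRA, 0 to 1 genes with the interaction and 0 to 1 transcripts with the interaction. In DAC, PVT1 from -0.063 to 0.075 and ENST00000540687.5 from -0.080 to 0.032. In ATRA, TUG1 from -0.096 to 0.032, ENST00000540687.5 from -0.099 to 0.12, ENST00000519077.3 from -0.10 to 0.018, ENST00000602393.1 from -0.040 to 0.16 and ENST00000513868.6 from -0.41 to 0.12. In DAC+ATRA, MALAT1 from -0.019 to 0.020, PVT1 from -0.12 to 0.23, TUG1 from -0.0068 to 0.073, ENST00000519077.3 from -0.013 to 0.067, ENST00000602393.1 from -0.063 to 0.094, ENST00000513868.6 from -0.0067 to 0.21, ENST00000534336.1 from -0.019 to 0.020 and ENST00000520913.1 from -0.43 to 0.31. In DAC+ATRA against DAC, PVT1 from -0.13 to 0.21, ENST00000513868.6 from -0.18 to 0.031 and ENST00000520913.1 from -0.73 to 0.0099. In DAC+ATRA against ATRA, GAS5 from -0.11 to 0.24, TUG1 from -0.0096 to 0.12, ENST00000519077.3 from -0.0031 to 0.11, ENST00000602393.1 from -0.16 to 0.035, ENST00000441504.1 from -0.99 to 0.22 and ENST00000444958.1 from -0.51 to 0.069. In the interaction, DANCR from -0.097 to 0.32, ENST00000513868.6 from -0.17 to 0.36, ENST00000441504.1 from -0.59 to 0.61 and ENST00000520913.1 from -0.16 to 0.57. Where the count with ATRA was 0, limma on all libraries had 2 of 6 genes and 2 of 9 transcripts at an unadjusted p under 0.05, against 26.7% and 22.5% of all tested. A library left out leaves 2 in its group, which are taken to vary like the other groups. No paired analysis was possible because the columns carry no replicate numbers that link the groups. The share of NEAT1 reads on the long form could not be resolved at this depth. It rested on 24 bases of the short form in GENCODE 44, whose version is later than that counted. GAS5, DANCR and PVT1, with 146, 254 and 369 reads over 12 libraries, show only large changes. The settings for gene lists, the TUG1 share, the ratio of NEAT1 to MALAT1 and the pyrimidine runs were chosen after the data were seen.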
